A study of Mus musculus with 12 samples.

Results

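The BCL2 family members examined here were Bcl2, Bcl2l1, Mcl1, Bax, Bak1, Bcl2l11, Bid, Bad, Bbc3 and Pmaip1. They were listed by symbol, with earlier results of these data known, and were matched through their Ensembl gene identifiers to the mouse annotation. All 10 were listed in both deposited tables, among 26382 genes that both tables held. RNA was sequenced from mural granulosa cells (MGCs, which line the follicle wall) and from cumulus cells (CCs, the granulosa cells around the oocyte) of mice at 2 h post-hCG, with 3 libraries per genotype and cell type and 12 libraries in all. Human chorionic gonadotropin (hCG) acts on the LH receptor and starts ovulation, and the mice were immature females that had first received equine chorionic gonadotropin. The sample titles call the controls Control and give no genotype for them. They are named WT here as in the paper, whose methods describe WT C57/BL6 mice. The knockout mice (Sphk1/2gc-/-, labelled Sphk1/2 knockout) lacked Sphk1, a sphingosine kinase gene, in all cells, and carried loxP-flanked Sphk2 with a Cre driven by the promoter of Fshr, the receptor gene that marks granulosa cells. Whether the controls carried a floxed allele or Cre is not stated in the sources used here. The labels do not say whether the libraries came from separate animals, so p-values here measure the spread between libraries, which may be technical.

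The BCL2 family sets whether the outer mitochondrial membrane stays closed. Guardians such as BCL2, BCL-XL and MCL1 hold the effectors BAX and BAK in check, and BH3-only proteins such as BIM, BID, BAD, PUMA and NOXA bind guardians or effectors when a cell is damaged or short of growth factor. Once BAX or BAK opens the membrane, cytochrome c leaves and caspases are activated. In the ovary this pathway acts in the granulosa cells of follicles that undergo atresia.

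The values are FPKM, that is fragments scaled by the exon length of the gene and by the depth of the library. The depth recovered from the steps between low values was 16100347 to 19761596 reads per library. Granulosa markers were high in both cell types, with a summed FPKM of 9996 to 16651 over 10 genes in MGCs and 3546 to 5946 in CCs. Oocyte markers summed to 27.6 to 108.8 FPKM in MGC libraries and to 1.62 to 5.78 FPKM in CC libraries. Leukocyte markers summed to 182.5 to 343.7 FPKM in WT MGCs and to 34.5 to 248.8 FPKM in Sphk1/2gc-/- MGCs, with the lowest sum in library 3. Erythrocyte markers were also lowest in that library among the MGCs, at 30.6 FPKM against 230.0 to 403.9 FPKM in the others. Markers listed for CCs after hCG summed to 514 FPKM in it. They summed to 2353 and 2191 FPKM in Sphk1/2gc-/- MGC libraries 1 and 2 and to 1348 to 1587 FPKM in WT MGCs. Its granulosa markers, at 13835 FPKM, lay within the WT range. Sphk1 ranged from 0.460 to 1.88 FPKM in MGCs of WT mice and from 0.104 to 0.557 FPKM in those of Sphk1/2gc-/- mice, so the ranges overlapped. In CCs it was at 0.0699 to 0.0954 FPKM in WT and at 0.0778 to 0.557 FPKM in the libraries labelled Sphk1/2gc-/-, which goes against those labels. Sphk2 was at 5.18 to 5.86 FPKM in WT MGCs and at 4.51 to 6.29 FPKM in Sphk1/2gc-/- MGCs. In CCs it was at 0.403 to 0.602 FPKM in WT and at 0.434 to 0.752 FPKM in the libraries labelled Sphk1/2gc-/-. The ranges of Sphk2 overlapped between the genotypes in both cell types, so its level did not set the genotypes apart. These values cover whole genes and do not show the deleted exons apart. By immunofluorescence and western blotting, the paper found SphK2 protein depleted in granulosa cells of knockout mice primed with equine chorionic gonadotropin. It also reports that S1P rose in WT ovaries at 2 h post-hCG and did not rise in knockout ovaries. Genotype names of MGC libraries below follow the labels. For CCs, therefore, every genotype difference below is between libraries labelled Sphk1/2gc-/- and libraries labelled Control, named WT here.

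Bcl2l11 was the member whose transcript rose in CCs labelled Sphk1/2gc-/-. It encodes BIM, a BH3-only protein that binds all guardians and can activate BAX and BAK directly. The gene lies on the plus strand of chromosome 2 (GRCm38, 128126038 to 128162547). The 250 bases before its first RefSeq start site (GRCm38.p6, chr2:128125788-128126037, plus strand) are shown because this was the member that passed the genotype test, with a match to the forkhead core GTAAACA in capitals.
Bcl2l11: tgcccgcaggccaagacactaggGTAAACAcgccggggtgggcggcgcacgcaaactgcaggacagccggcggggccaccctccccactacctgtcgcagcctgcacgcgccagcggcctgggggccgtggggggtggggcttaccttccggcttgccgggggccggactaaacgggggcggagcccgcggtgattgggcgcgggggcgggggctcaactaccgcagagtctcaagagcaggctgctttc
The match starts at position -227 relative to the start site. The RefSeq table gave 15 such windows for 9 members, and Pmaip1 was not shown. On both strands, GTAAACA was found in 2 of the 15 windows, that of Bcl2l11 and a window of Bbc3, and in 3.17% of all 32851 promoters in the table. The GC box GGGCGG was found in 10 of the 15 windows, and in 32.7% of all promoters. The short cyclic AMP response motif TGACG was found in 2 windows, of Bcl2 and Bbc3, against 17.8% of all promoters. Neither the full motif TGACGTCA, which contains it, nor the AP-1 motif TGANTCA was found in the members' windows, and these were in 1.55% and 6.75% of all promoters. A match describes letters in the window and shows no binding.

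In WT CCs, Bcl2l11 was at 2.59, 2.63 and 3.95 FPKM (mean 3.06 ± 0.773, SD, n = 3). In the CC libraries labelled Sphk1/2gc-/- it was at 6.69, 8.67 and 9.23 FPKM (mean 8.19 ± 1.34, SD, n = 3). Each library labelled Sphk1/2gc-/- therefore lay above each WT library, and the ratio of the means was 2.68. The log2 difference on the log2(FPKM + 1) scale was 1.19 (SE 0.188, 95% interval 0.75 to 1.62, limma with Benjamini-Hochberg adjusted p = 0.00509). Bcl2l11 was the 1 member of 6 tested that passed at an adjusted p of 0.05 or less, while 9.66% of the 12205 genes tested in CCs passed with a higher level and 12.7% with a lower one. The call held under every alternative, leaving out each library included, with log2 differences of 1.10 to 1.43 and limma adjusted p from 0.000913 to 0.0269. In bulk RNA, a change in the share of cells that hold a transcript and a change in transcript per cell cannot be told apart. Summed markers listed for CCs after hCG also differed. They were at 330.4 to 724.3 FPKM over 7 genes in WT CCs and 1098 to 1356 FPKM in those labelled Sphk1/2gc-/-. Ptx3 and Tnfaip6, given below, made up most of the sum in every CC library. The sum thus does not show a rise of the other markers listed. Summed granulosa markers were 4656 to 5946 FPKM in WT CCs and 3546 to 3757 FPKM in those labelled Sphk1/2gc-/-. The part of either sum in the Bcl2l11 difference was not tested. The first sum was 1348 to 1587 FPKM in WT MGCs, so it is not particular to CCs. Ptx3 was at 91.3 to 218.4 FPKM in WT CCs and 337.4 to 525.6 FPKM in those labelled Sphk1/2gc-/-. Tnfaip6 was at 121.6 to 282.3 and 424.8 to 605.8 FPKM, and Has2 overlapped at 31.9 to 74.6 and 62.0 to 89.6 FPKM. The paper reports the opposite direction, with less mRNA of cumulus expansion genes in knockout mice at a later time after hCG. Theca and stroma markers overlapped between the genotypes, at 18.0 to 62.5 FPKM in WT CCs and 12.3 to 33.8 FPKM in those labelled Sphk1/2gc-/-. Leukocyte markers overlapped too, at 5.55 to 55.7 FPKM and 9.40 to 59.2 FPKM over 14 genes. Of these, Cd74 was at 0 in all WT CC libraries and Csf3r in all CC libraries labelled Sphk1/2gc-/-. Lower sums were found in the latter for oocyte markers (2.55 to 5.78 FPKM in WT and 1.62 to 2.25 FPKM), erythrocyte markers (4.37 to 26.8 and 0.3002 to 1.78 FPKM) and endothelial markers (1.15 to 1.80 and 0.589 to 0.728 FPKM, with Tek and Tie1 at 0), and their part was not tested.

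In MGCs, the WT libraries held Bcl2l11 at 7.14, 7.24 and 5.21 FPKM, and the Sphk1/2gc-/- libraries held it at 8.77, 9.16 and 4.43 FPKM. Sphk1/2gc-/- libraries 1 and 2 lay above all WT libraries and library 3 lay below them, so the groups overlapped. The log2 difference was 0.12 (SE 0.273, limma adjusted p = 0.932). The genotype effect was larger in CCs than in MGCs by 1.06 on the log2 scale (SE 0.345, 95% interval 0.31 to 1.81), which did not pass the limma test across genes (unadjusted p = 0.00968, Benjamini-Hochberg adjusted p = 0.101). Without library 3 of both MGC genotypes, the difference between the effects was 0.90 (SE 0.244, limma adjusted p = 0.0381), in a fit where 10.0% of all genes passed with a higher value. With all 12 libraries, 0 of 10 members passed this test of the difference in limma, 1 had an unadjusted p of 0.05 or less, and over all 15869 genes 3.93% passed and 22.1% had such an unadjusted p. The count with limma-voom on recovered reads was also 0.

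**Figure D1:**
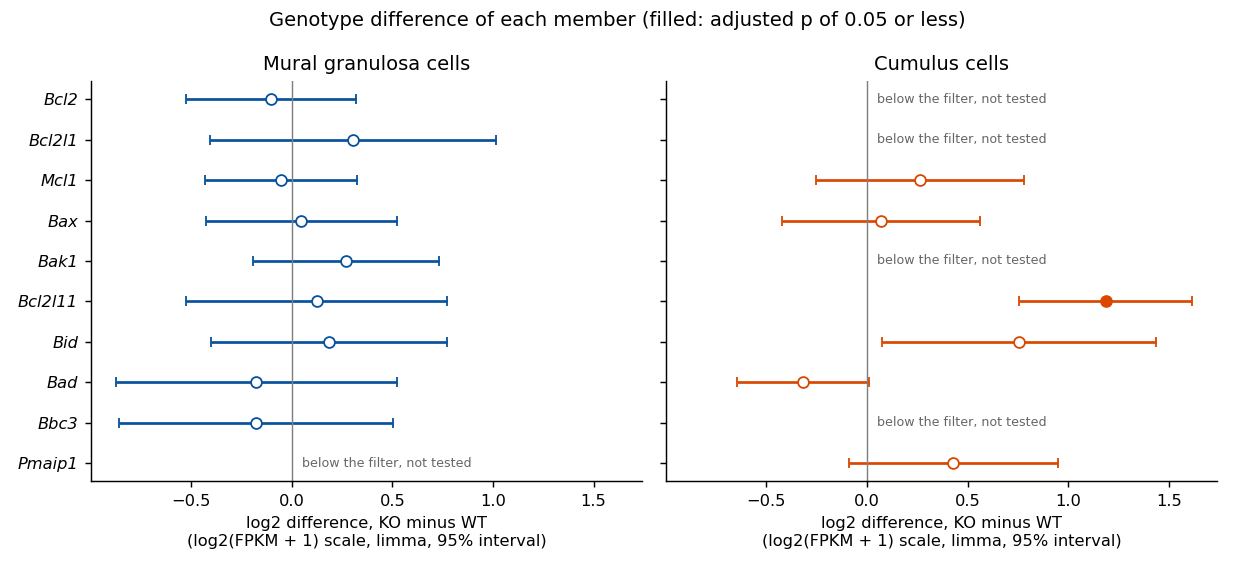
Log2 difference between Sphk1/2gc-/- (KO) and WT for each member in MGCs (left) and CCs (right), on the log2(FPKM + 1) scale; points are limma estimates from 3 libraries per genotype, whiskers are 95% intervals, and a filled point marks an adjusted p of 0.05 or less. Bcl2l11 in CCs, at 1.19, is the filled point, and the members marked as not tested were below the mean of 0.5 FPKM in both genotypes.

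Of the other BH3-only members, Bid, Bad and Pmaip1 did not pass the test in CCs, and Bbc3 was too low to be tested. Bid encodes a protein that caspase 8 cleaves to link death receptors to mitochondria. Bid was at 5.88, 10.3 and 6.59 FPKM in WT CCs and at 20.2, 12.4 and 9.06 FPKM in those labelled Sphk1/2gc-/-. The third library labelled Sphk1/2gc-/- lay below WT library 2, so the groups overlapped. The log2 difference was 0.76 (SE 0.297, 95% interval 0.08 to 1.44, limma adjusted p = 0.1003), and the adjusted p was 0.0618 to 0.271 over the alternatives. Exons of Bid share 17.7% of their bases with Bcl2l13 on the opposite strand, and the library kit did not keep strand. Bcl2l13 was at 3.19 to 4.75 FPKM in WT CCs and 3.38 to 5.20 FPKM in those labelled Sphk1/2gc-/-.

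Bad encodes a protein that survival kinases hold inactive by phosphorylation. In WT CCs it was at 3.00, 3.19 and 2.61 FPKM, and in those labelled Sphk1/2gc-/- at 1.93, 2.09 and 2.44 FPKM. Every library labelled Sphk1/2gc-/- lay below every WT library, but the log2 difference of -0.32 (SE 0.143) did not pass (limma adjusted p = 0.140). Non-overlap was common in CCs, where it held for 18.2% of genes with the libraries labelled Sphk1/2gc-/- above and 24.1% with them below. Among the members it held upward for Bcl2l11 and downward for Bad and Bak1.

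Pmaip1, which encodes NOXA, a partner of MCL1, was at 0.563, 0.0841 and 0.689 FPKM in WT CCs. It was at 1.34, 0.994 and 0.493 FPKM in those labelled Sphk1/2gc-/-, where library 3 lay within the WT range. The log2 difference was 0.43 (SE 0.227, limma adjusted p = 0.202), and Pmaip1 reached the filter through the group where it was higher. Bbc3, which encodes PUMA, a p53 target, was near detection in CCs, with 0, 0 and 4 reads in WT and 0, 1 and 7 reads in the libraries labelled Sphk1/2gc-/-. These reads are too few for a comparison of the genotypes.

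Of the effectors among the members, Bax was the more abundant in CCs and did not pass a genotype test. Bax was at 36.7, 43.1 and 51.3 FPKM in WT CCs and at 34.0, 52.9 and 52.3 FPKM in those labelled Sphk1/2gc-/-. The groups overlapped fully, with a log2 difference of 0.07 (SE 0.215, 95% interval -0.42 to 0.56, limma adjusted p = 0.841). Bak1 was almost undetected in CCs, with 5, 2 and 5 reads in WT and 1 read in each library labelled Sphk1/2gc-/-. The summed 12 reads and 3 reads have exact 95% Poisson intervals of 6.20 to 20.96 and 0.619 to 8.77. These intervals cover counting error only, leave out library depth and, though they overlap, do not test the difference. Without the filter, the log2 difference of Bak1 was -0.10 (limma adjusted p = 0.220).

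Of the guardians, Mcl1 had the highest FPKM in every library of both cell types. MCL1 is a short-lived guardian whose level follows its synthesis and turnover. Mcl1 was at 24.6, 18.4 and 24.3 FPKM in WT CCs and at 19.6, 29.0 and 34.2 FPKM in those labelled Sphk1/2gc-/-. The groups overlapped, and the log2 difference was 0.26 (SE 0.226, limma adjusted p = 0.424). Bcl2l1, which encodes BCL-XL, had 23, 22 and 28 reads in WT CCs and 30, 32 and 29 reads in those labelled Sphk1/2gc-/-. Bcl2, which encodes the founding guardian, had 10, 18 and 33 reads in WT and 35, 50 and 47 reads in those labelled Sphk1/2gc-/-, so each of the latter lay above each WT library in reads, though not in FPKM, where WT library 3 (0.205) and library 1 labelled Sphk1/2gc-/- (0.203) crossed. Both genes were under 0.5 FPKM in CCs and entered no test there. Without the filter, the limma adjusted p was 0.828 for Bcl2l1 and 0.410 for Bcl2.

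**Figure D2:**
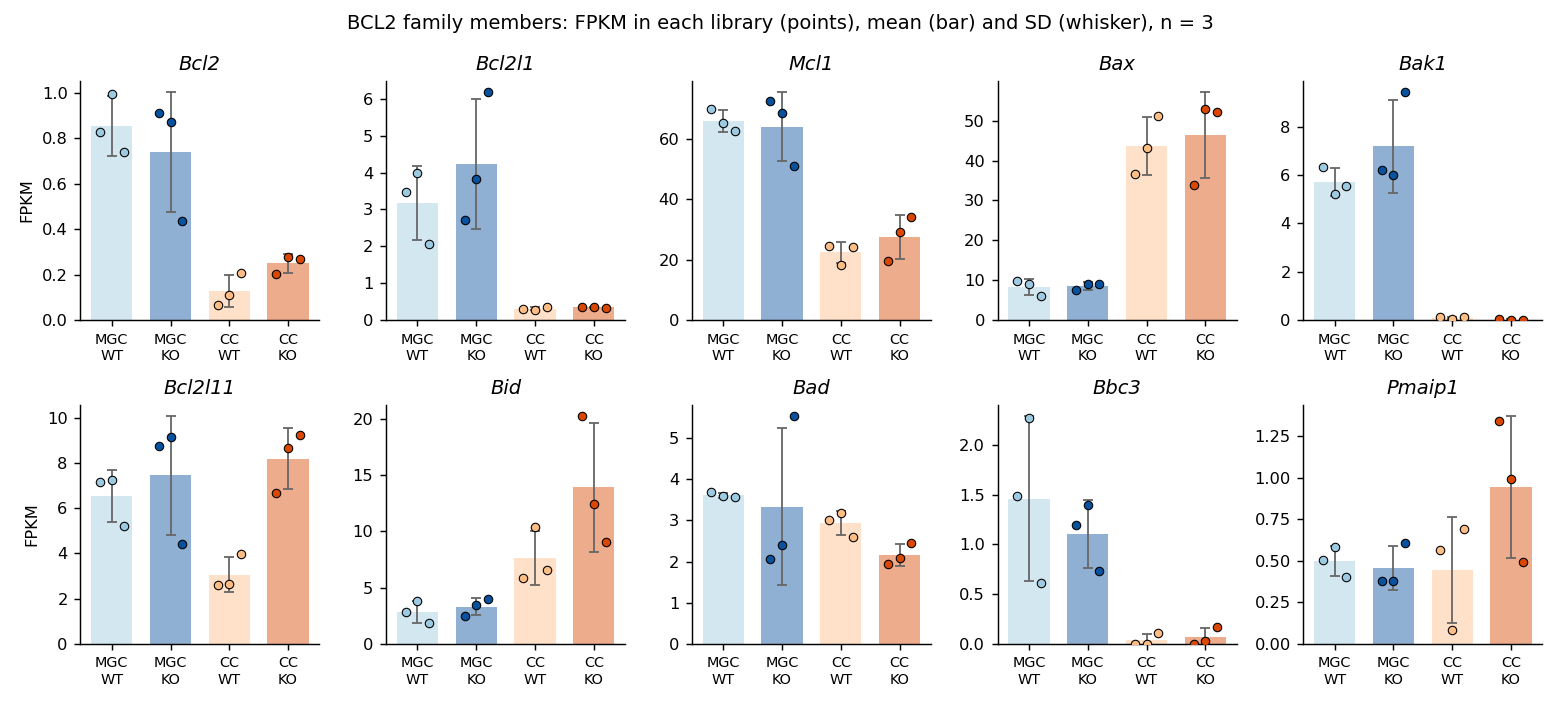
FPKM of each member by cell type and genotype; points are libraries in the order 1, 2, 3, bars are means and whiskers are SD (n = 3), with a linear axis from 0 for each gene. Bcl2l11 in CCs shows 3 libraries labelled Sphk1/2gc-/- (6.69 to 9.23 FPKM) above 3 WT libraries (2.59 to 3.95 FPKM), and Bak1 and Bbc3 are near 0 in CCs.

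In MGCs, 0 of 9 tested members passed the genotype test in limma, 0 had an unadjusted p of 0.05 or less, and 0 passed with limma-voom on recovered reads. Of all 15279 genes tested in MGCs, 0.0393% passed, and an unadjusted p at or under 0.05 was found for 9.20%. Mcl1 was at 69.9, 65.2 and 62.7 FPKM in WT and at 72.6, 68.6 and 51.2 FPKM in Sphk1/2gc-/-. Bcl2l1 was at 3.46, 4.00 and 2.06 FPKM in WT and at 2.70, 3.84 and 6.18 FPKM in Sphk1/2gc-/-. Bcl2 was at 0.828, 0.996 and 0.738 FPKM in WT and at 0.908, 0.870 and 0.435 FPKM in Sphk1/2gc-/-. Sphk1/2gc-/- library 3 was the lowest of the 6 MGC libraries for Mcl1 and Bcl2 and the highest for Bcl2l1, and each pair of groups overlapped.

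Among effectors and BH3-only members in MGCs, Sphk1/2gc-/- library 3 was the highest of the 6 for Bak1, Bad, Bid and Pmaip1 and the lowest for Bcl2l11, and it lay within the WT range for Bax and Bbc3. Bax was at 9.81, 9.15 and 6.02 FPKM in WT and at 7.41, 9.03 and 9.09 FPKM in Sphk1/2gc-/-. Bak1 was at 6.35, 5.22 and 5.54 FPKM in WT and at 6.20, 5.99 and 9.42 FPKM in Sphk1/2gc-/-. Bad was at 3.69, 3.59 and 3.58 FPKM in WT, a spread of 0.0592 FPKM (SD, n = 3), and at 2.06, 2.41 and 5.54 FPKM in Sphk1/2gc-/-. Sphk1/2gc-/- libraries 1 and 2 thus lay below every WT library for Bad and library 3 lay above them. Over all 6 libraries the log2 difference of Bad was -0.18 (SE 0.294, limma adjusted p = 0.9002). Without library 3 of both genotypes it was -0.52 (SE 0.108, limma adjusted p = 0.0412), and Bad was then the 1 member of 10 tested that passed, in a fit where 11.0% of all genes passed with a lower level. Exons of Bad share 20.5% of their bases with Gpr137 on the opposite strand, and Gpr137 was at 3.15, 2.56 and 7.00 FPKM in the same Sphk1/2gc-/- libraries.

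The remaining members overlapped between the genotypes in MGCs. Bid was at 2.84, 3.83 and 1.82 FPKM in WT libraries, and Sphk1/2gc-/- libraries gave 2.48, 3.46 and 3.94 FPKM. Bbc3 was at 1.48, 2.27 and 0.614 FPKM in WT and at 1.19, 1.39 and 0.729 FPKM in Sphk1/2gc-/-. Pmaip1 was at 0.504, 0.586 and 0.403 FPKM in WT and at 0.379, 0.379 and 0.606 FPKM in Sphk1/2gc-/-, and its group means were below the filter. The 95% intervals of the log2 differences were widest for Bcl2l1 (-0.41 to 1.02), Bad (-0.87 to 0.52) and Bbc3 (-0.86 to 0.50). Changes within these intervals were not excluded.

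In WT, CCs had more Bax and Bid and less Mcl1, Bcl2l1, Bcl2, Bak1, Bbc3 and Bcl2l11 than MGCs. Of the 10 members, 2 passed with a higher level in CCs, where 24.1% of all 15869 genes did, and 6 with a lower level, where 52.5% did. Passing was thus common among all genes. Each cell type has a table of its own, so table and cell type cannot be told apart. Bak1, Bbc3, Bcl2l1 and Bcl2 reached the filter through MGCs, where they were higher, so that they had to differ in this comparison. Summed markers of other cells were also higher in WT MGCs than in WT CCs. Theca and stroma markers were at 195 to 368 FPKM over 9 genes in WT MGCs and at 18.0 to 62.5 FPKM in WT CCs, whose table listed 8 of them. Endothelial markers were at 13.1 to 16.9 FPKM in WT MGCs and 1.15 to 1.80 FPKM in WT CCs, and leukocyte markers at 182.5 to 343.7 FPKM and 5.55 to 55.7 FPKM. Oocyte markers were at 37.0 to 91.1 FPKM in WT MGCs and 2.55 to 5.78 FPKM in WT CCs. Erythrocyte markers were at 262.0 to 403.9 FPKM and 4.37 to 26.8 FPKM, with 4 of 5 genes listed for CCs. The part of these cells in the differences between cell types was not tested.

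Bax had a ratio of means of 5.25 (43.7 ± 7.33 FPKM in WT CCs against 8.33 ± 2.02 FPKM in WT MGCs, SD, n = 3). Its log2 difference was 2.27 (SE 0.215, limma adjusted p = 1.29e-06). Bid was 2.69-fold higher in CCs, with a log2 difference of 1.17 (SE 0.294, limma adjusted p = 0.00319). All CC libraries of either genotype lay above all MGC libraries for both genes. Exons of Bax share 12.2% of their bases with Gm45808 on the same strand.

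Bak1 showed the opposite pattern to Bax. It was at 5.71 ± 0.579 FPKM in WT MGCs and 0.0978 ± 0.0450 FPKM in WT CCs (SD, n = 3), a ratio of means of 58.3 that rests on 12 reads in CCs. Its log2 difference was -2.61 (SE 0.161, limma adjusted p = 3.64e-08). Exons of Bak1 share bases with Ggnbp1 on the opposite strand, which was at 0.0401 to 0.0984 FPKM in WT CCs. In MGCs, Bax was 0.965 to 1.75 times Bak1 in FPKM, and in WT CCs it was 284.4 to 931.6 times Bak1. Bok, the BAX relative outside the members, was at 5.97 to 6.84 FPKM in WT CCs and at 20.0 to 25.7 FPKM in WT MGCs.

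Of the guardians, Mcl1 was above the filter in both cell types and was lower in WT CCs. Mcl1 was at 65.9 ± 3.66 FPKM in WT MGCs and 22.4 ± 3.52 FPKM in WT CCs (SD, n = 3), a log2 difference of -1.52 (SE 0.206, limma adjusted p = 2.85e-05). Bcl2l1 and Bcl2 were under 0.5 FPKM in WT CCs and were tested because of their level in MGCs. Bcl2l1 was at 3.17 FPKM in WT MGCs and 0.309 FPKM in WT CCs on average, a ratio of 10.3 and a log2 difference of -1.64 (SE 0.232, limma adjusted p = 4.15e-05). Bcl2 was at 0.854 and 0.127 FPKM, a log2 difference of -0.72 (SE 0.132, limma adjusted p = 0.000361), and this call was lost with the trend against exon length removed (adjusted p = 0.425). No CC library of either genotype reached the lowest MGC library for these guardians.

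Among BH3-only members, Bbc3 had a log2 difference of -1.19 (SE 0.220, limma adjusted p = 0.000369) with 4 reads in all WT CCs. Bcl2l11 had a log2 difference of -0.90 (SE 0.244, limma adjusted p = 0.00521). Its mean in CCs labelled Sphk1/2gc-/- (8.19 FPKM) was 1.10 times that in Sphk1/2gc-/- MGCs (7.45 FPKM). Bad (-0.23, SE 0.235) and Pmaip1 (-0.08, SE 0.194) did not pass, with limma adjusted p of 0.374 and 0.734.

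Long genes had lower FPKM in CC libraries than in MGC libraries. The median log2 difference over all genes was -0.54, and it went from -0.18 in the shortest of 5 equal bins of exon length to -0.85 in the longest. Within the bin of its own exon length, Bax lay above 92.3% of genes and Bid above 87.3%. Bak1 lay above 5.36% of genes of similar length, Bbc3 above 21.5%, Mcl1 above 22.7% and Bcl2l1 above 23.8%. Bcl2l11 and Bcl2, whose exons are long, were near the middle of theirs, above 48.2% and 54.6%. With the trend of each library against exon length removed, an alternative chosen after seeing the data, Bax (2.24), Bid (1.66) and Mcl1 (-1.06) still passed. Bcl2l11 (-0.06, limma adjusted p = 0.844) and Bcl2 (0.14, limma adjusted p = 0.425) did not. Bak1 (-2.42), Bcl2l1 (-0.99) and Bbc3 (-1.08) also passed. These last genes reached the filter through MGCs, where they were higher, so neither their low ranks nor their passing is separate evidence of a difference.

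**Figure D3:**
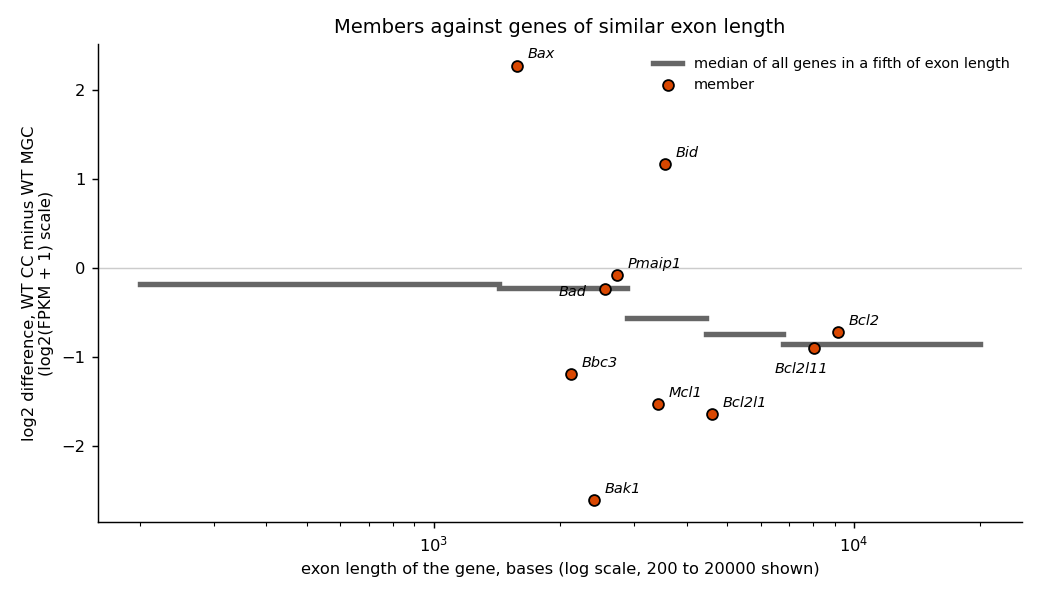
Log2 difference between WT CCs and WT MGCs (vertical axis, log2(FPKM + 1) scale) against the exon length of the gene in bases (log axis); orange points are the members and grey bars are medians of all genes in each of 5 equal bins of exon length. The bars go from -0.18 to -0.85, Bax and Bid lie above them, Bak1, Bbc3, Mcl1 and Bcl2l1 below, and Bcl2, Bcl2l11, Bad and Pmaip1 close to them.

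The order of the members by FPKM differed between the cell types. In WT MGCs it was Mcl1, Bax, Bcl2l11, Bak1, Bad, Bcl2l1, Bid, Bbc3, Bcl2 and Pmaip1. The ranges of neighbours were separate between Mcl1 and Bax, between Bak1 and Bad and between Bcl2 and Pmaip1, and overlapped elsewhere. In WT CCs the order was Bax, Mcl1, Bid, Bcl2l11, Bad, Pmaip1, Bcl2l1, Bcl2, Bak1 and Bbc3. There the overlapping neighbours were Bcl2l11 and Bad, Pmaip1 and Bcl2l1, Bcl2 and Bak1, and Bak1 and Bbc3. The libraries labelled Sphk1/2gc-/- kept this order in CCs except that Bbc3 and Bak1 changed places, and Bcl2l11 (8.19 FPKM) was there separate from Bad (2.16 FPKM). The FPKM of Bad and Pmaip1 did not fall on whole reads with the exon lengths used here, so their place among the other genes rests on a length that is not known.

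Summed by role, guardians made up 63.1% to 73.8% of the members' FPKM in MGC libraries and 23.9% to 33.8% in CC libraries. Bax and Bak1, the effectors among the members, made up 13.0% to 20.2% in MGCs and 40.3% to 57.0% in CCs. Bok is left out of this share. It averaged 22.8 FPKM in WT MGCs, above Bax and above Bak1 there, and 6.47 FPKM in WT CCs. The share therefore does not show that effector transcripts as a whole were scarcer in MGCs. BH3-only members made up 15.5% to 20.8% in WT CCs and 19.7% to 35.8% in CCs labelled Sphk1/2gc-/-. Among Bcl2, Bcl2l1 and Mcl1, Mcl1 supplied 88.6% to 98.5% of the summed FPKM over all 12 libraries. This sum leaves out the guardians outside the members. Of these, Bcl2l10 averaged 12.1 FPKM in WT CCs and 8.39 FPKM in WT MGCs, and Bcl2l2 averaged 2.89 and 9.49 FPKM. Within a library, Mcl1 was 5.64 to 10.4 times Bax in MGCs and 0.426 to 0.670 times Bax in CCs, and these ranges of the genotypes overlapped in each cell type. Bcl2l11 was 0.105 to 0.163 times Mcl1 in WT CCs and 0.270 to 0.342 times Mcl1 in those labelled Sphk1/2gc-/-. These shares and ratios describe transcripts and were not tested.

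**Figure D4:**
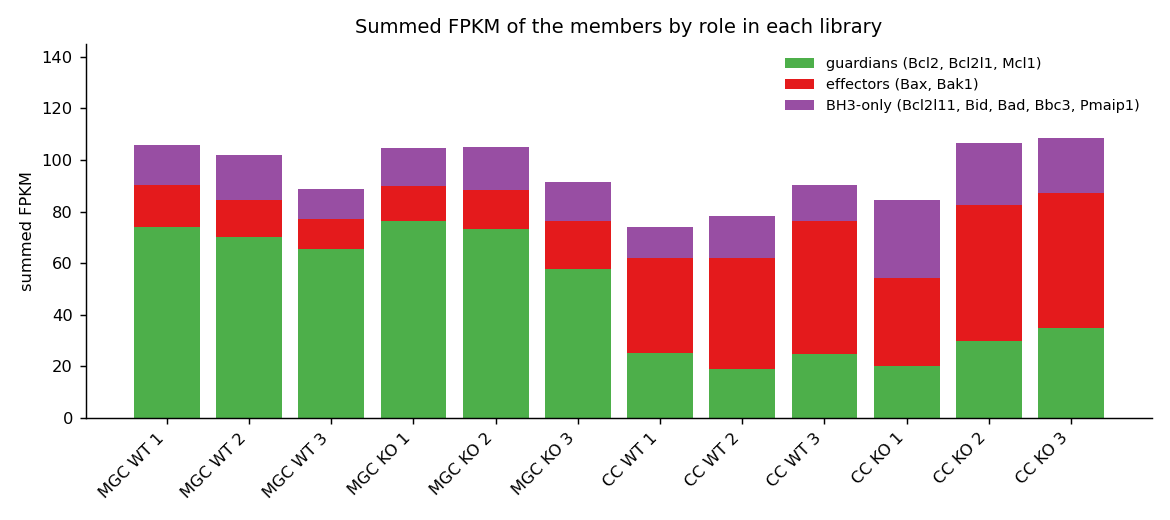
Summed FPKM of the members by role, with guardians (green), effectors (red) and BH3-only members (purple) in each of the 12 libraries. Guardians are the largest part in every MGC library (57.9 to 76.2 FPKM) and effectors in every CC library (34.0 to 52.9 FPKM).

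Across all 12 libraries, the genes whose log2(FPKM + 1) was most like that of Bcl2l11, among 6719 genes that averaged 5 FPKM or more, were Penk, Synm and Dusp5. Pearson's r was 0.952, 0.952 and 0.951. Penk encodes the enkephalin precursor, Synm an intermediate filament protein and Dusp5 a phosphatase that acts on ERK. The points share library and cell type, and no p is given. Penk was at 5.66, 7.97 and 12.1 FPKM in WT CCs and at 26.7, 47.6 and 49.2 FPKM in those labelled Sphk1/2gc-/-. In MGCs Penk was at 60.2, 61.7 and 30.6 FPKM in WT and at 69.7, 70.9 and 22.9 FPKM in Sphk1/2gc-/-. The likeness thus takes in the lower library 3 of each MGC genotype as well as the CC libraries.

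The wider apoptosis pathway was followed through 69 further genes in 7 lists. In CCs, 8 of the 56 tested passed with a higher level and 8 with a lower level, which set beside 9.66% and 12.7% of all genes is not a result about the pathway as such. Of p53 and its targets, 6 of 14 passed with a higher level and 0 with a lower one, with a median log2 difference of 0.45 against -0.06 over all genes. Of the apoptosome and caspases, 0 of 9 passed with a higher level and 3 with a lower one (median -0.34). Of effectors and BH3-only genes outside the members, 1 of 4 passed higher and 2 lower. Of inhibitors of apoptosis and their antagonists, 1 of 7 passed lower. Of genes of the mitochondrial pore and MCL1 turnover, 1 of 10 passed higher and 2 lower. None of 4 guardians outside the members and none of 8 death receptors and adaptors passed in limma, where 0 of the guardians and 3 of the receptors and adaptors had an unadjusted p of 0.05 or less, as did 38.2% of all genes. In MGCs, 0 of 62 tested genes of these lists passed in limma, and for 4 the unadjusted p was 0.05 or less, where 9.20% of all genes had such a p.

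Cdkn1a, the p53 target that encodes a cyclin-dependent kinase inhibitor, was at 11.1, 8.56 and 17.1 FPKM in WT CCs and at 30.8, 53.4 and 51.1 FPKM in those labelled Sphk1/2gc-/-. Its log2 difference was 1.81 (SE 0.286, limma adjusted p = 0.00497). Trp53inp1 (1.74), Phlda3 (1.29), Eda2r (1.14), Perp (1.03) and Bok (0.94) also rose on the log2 scale. Trp53 itself was at 14.4, 17.5 and 23.2 FPKM in WT CCs and at 21.3, 18.4 and 16.8 FPKM in those labelled Sphk1/2gc-/-, with a log2 difference of 0.05 (limma adjusted p = 0.866). Of the members known as p53 targets, Bax and Pmaip1 did not pass in CCs and Bbc3 was not tested there.

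Bnip3, a BH3-only relative that acts in mitophagy, fell by 1.86 on the log2 scale in CCs, from 232.5 ± 44.3 to 64.0 ± 16.8 FPKM (SD, n = 3, limma adjusted p = 0.00177). Birc5 (-1.50), which encodes survivin, Bnip3l (-0.85), Casp6 (-0.74) and Vdac3 (-0.74) also fell. The calls of Bok, Casp6, Perp and Vdac3 were each lost when CC WT library 1 was left out (limma adjusted p 0.0647, 0.0595, 0.123 and 0.0969) and when CC library 3 labelled Sphk1/2gc-/- was left out (0.0658, 0.0629, 0.114 and 0.106). Bok, Casp6 and Vdac3 also lost theirs without CC WT library 2 (0.0550, 0.0708 and 0.107), and Bok, Perp and Vdac3 without CC library 2 labelled Sphk1/2gc-/- (0.0572, 0.0528 and 0.0882). Perp lost its call as well without CC WT library 3 (0.0991) and without CC library 1 labelled Sphk1/2gc-/- (0.0611).

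**Figure D5:**
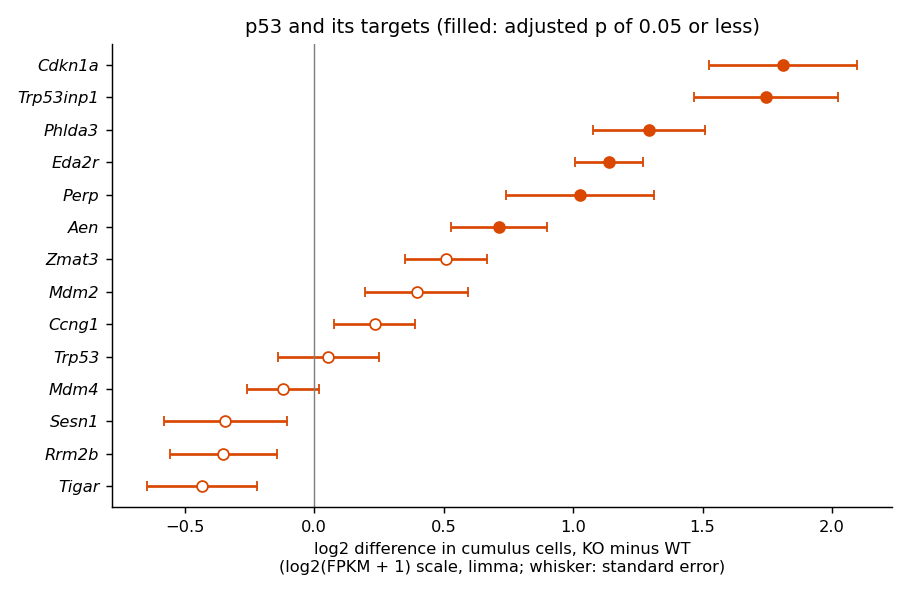
Log2 difference between CC libraries labelled Sphk1/2gc-/- (KO) and WT (horizontal axis, log2(FPKM + 1) scale) for the 14 tested genes of the list of p53 and its targets; points are limma estimates from 3 libraries per genotype, whiskers are standard errors and filled points passed at an adjusted p of 0.05 or less. The 6 filled points lie between 0.71 and 1.81, and Trp53 lies at 0.05.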

How the data were processed

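RNA was sequenced from 12 libraries (total RNA, NEBNext Ultra kit, which keeps no strand). The authors deposited FPKM, 1 table per cell type with 29101 (MGCs) and 33137 (CCs) genes. HISAT2 and GRCm38 are named in the submitters' processing notes, and the counting tool is not given in the sources used here. The labels gave the groups.

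Gene names and positions came from GENCODE M21 (GRCm38), which held 29037 and 33071 of the listed genes. FPKM multiplied by exon length fell on whole reads for 90.2% to 92.1% of values above 0 (tolerance 0.02 reads). For 99.6% of 9321 genes, this held in both tables or in neither, so values were compared between tables as scaled within each library.

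Genes that averaged 0.5 FPKM or more in a group were tested with limma 3.58.1 (trend) in R 4.3.3 on log2(FPKM + 1), which understates changes at low levels. Genotypes were compared within each table, and cell types and the difference of genotype effects in 1 model of 12 libraries. A gene passed when its p, adjusted by Benjamini-Hochberg over all tested genes, was at most 0.05. The code was tested on simulated data. The members and lists were chosen with earlier results of these data known. All members were named. Of the pathway lists, genes that passed and averaged 1 FPKM or more were named, at most 6 per direction and cell type by size of change, and Trp53 was added after its values were seen. A gene that this rule names is not reported here.

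Libraries of the same number deviated together in MGCs (correlations 0.235, 0.172 and 0.230) but not in CCs (-0.154, -0.0513 and 0.120), and the labels state no shared animal. Among unlike numbers in MGCs, WT 1 with Sphk1/2gc-/- 2 gave 0.165 and the other pairs -0.243 to -0.019. Unlike numbers in CCs gave -0.204 to 0.186. Promoter sequences came from RefSeq (GRCm38.p6).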

Additional observations from a re-analysis of the deposited data

Results flagged for a closer look

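Of the pathway genes named in CCs, 3 had genotype effects that differed between CCs and MGCs in the test of the difference itself (limma, 12 libraries), where 3.93% of all genes passed. These genes had been named because they passed in CCs with a large change, and that change is part of the difference tested here. The CC effect minus the MGC effect was 2.24 on the log2 scale for Trp53inp1 (adjusted p = 0.0351), and 0.95 for Eda2r (adjusted p = 0.0375). It was -1.88 for Birc5 (adjusted p = 0.0274). All 3 calls were lost without any one of MGC WT libraries 1 and 2, CC WT libraries 1 and 2 and CC libraries 2 and 3 labelled Sphk1/2gc-/-. The highest limma adjusted p came without MGC WT library 1 and was 0.101 for Trp53inp1, 0.112 for Eda2r and 0.0872 for Birc5. Without CC WT library 3 it was 0.0550 for Trp53inp1 and 0.0641 for Eda2r, and for Eda2r it was 0.0527 and 0.0522 without Sphk1/2gc-/- MGC libraries 1 and 2. In WT MGCs, Birc5 was at 5.70, 6.24 and 8.09 FPKM, and in Sphk1/2gc-/- MGCs at 6.50, 6.98 and 15.5 FPKM.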

How the results depend on the processing

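The alternatives were a pseudocount of 0.1, no filter on low values, median ratio scaling, a fold of at least 2, limma-voom on recovered reads, the replicate block, each library left out and, in MGCs, replicate 3 of both genotypes left out. Bcl2l11 passed in CCs under all of them. The member count for MGCs and for the difference between cell types became 1 without replicate 3 of both MGC genotypes, and stayed within 1.5 times otherwise. With the replicate block no member call changed, and 3 rather than 6 genes passed in MGCs. In CCs the block lost Perp (limma adjusted p = 0.0764) and, in the difference between cell types, Trp53inp1 (0.0546) and Eda2r (0.0549). Without the filter, Bok (0.0599), Perp (0.125) and Vdac3 (0.0879) were lost in CCs, and Birc5 (0.0507), Trp53inp1 (0.0658) and Eda2r (0.0705) in the difference. With the fold, Bnip3l, Bok, Casp6 and Vdac3 were lost in CCs and Eda2r in the difference. In MGCs, 1 gene passed without the filter, 0 with limma-voom, 0 to 278 with 1 library left out and 2486 without replicate 3 of both genotypes. In CCs, 2725 genes passed, 1240 without the filter, 981 with the fold and 1319 to 3930 with 1 library left out. Between WT cell types, 12156 genes passed and 7733 with the fold, and 8 members passed but 6 with the fold, Bcl2 and Bcl2l11 being lost. For the difference between cell types, 624 passed, 327 without the filter, 108 to 1189 with 1 library left out and 2474 without replicate 3 of both MGC genotypes.

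Members that did not pass changed sign in places. With 1 library left out, log2 differences in MGCs ran from -0.18 to 0.030 for Bcl2, -0.15 to 0.10 for Mcl1, -0.14 to 0.17 for Bax, -0.037 to 0.41 for Bcl2l11, -0.019 to 0.37 for Bid, -0.52 to 0.033 for Bad and -0.45 to 0.058 for Bbc3. Without replicate 3 of both MGC genotypes they were -0.16 for Bcl2l1, 0.063 for Mcl1, -0.19 for Bax and -0.13 for Bid. Bax in CCs ran from -0.046 to 0.27, and Pmaip1 between WT cell types from -0.20 to 0.12. The difference between cell types ran from -0.10 to 0.23 for Bax, -0.35 to 0.20 for Bad and -0.020 to 0.49 for Bbc3, and without replicate 3 of both MGC genotypes was 0.20 for Bcl2l1 and 0.20 for Bad. With the exon length trend removed, Bcl2 (0.14), Bad (0.0043) and Pmaip1 (0.22) were no longer lower in WT CCs. The cause of these changes was not tested. Scaling moved 1 of 40 group means by more than its SD. Low reads limit Bak1, Bbc3, Bcl2 and Bcl2l1 in CCs.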

Other observations

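Of the guardians outside the members, Bcl2l10 and Bcl2l2 had levels in CCs above those of Bcl2 and Bcl2l1. These genes were singled out after their values were seen. Bcl2l10, a BCL2 relative known from oocytes, was at 14.6, 9.53 and 12.3 FPKM in WT CCs and at 10.4, 15.0 and 16.4 FPKM in those labelled Sphk1/2gc-/-. In the same CC libraries the oocyte genes Gdf9, Zp3 and Bmp15 were at 1.92 FPKM or less. In MGC libraries Bcl2l10 was at 3.14 to 13.6 FPKM, and Gdf9 was at 8.80 to 26.7 FPKM. Bcl2l2, which encodes BCL-W, was at 2.76, 3.04 and 2.87 FPKM in WT CCs and at 2.08, 3.05 and 2.66 FPKM in those labelled Sphk1/2gc-/-. Neither passed a genotype test in CCs, with limma adjusted p of 0.570 and 0.597.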
